A study of Homo sapiens with 3 samples.

Results

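The genes described here make cholesterol and fatty acids or control that synthesis. They were chosen as a list of 32 symbols, and each was read through the probe sets that the platform annotation pairs with its symbol alone. The list holds 19 genes of the sterol branch, 8 of the fatty acid branch and 5 of the SREBP system, which controls both branches. Of these 32 genes, 29 had such a probe set (17 sterol, 7 fatty acid and 5 SREBP genes), out of 19775 genes measured in all. CYP51A1 and FADS1 had only probe sets that also name another gene, and FDFT1 had no entry in the annotation used here, so these 3 genes have no value below. RNA came from Rh-30, an established line of alveolar rhabdomyosarcoma (ARMS) in which PAX3 and FOXO1 are fused, grown in medium with fetal bovine serum. Cells were transfected with siPF, an siRNA against the fusion junction of PAX3-FOXO1, with siB7-H3, an siRNA against B7-H3 (CD276), or with the control siRNA siCont, each at 5 nM, and RNA was taken after 24 h. A single siRNA was used per target. Each condition had 1 array, so there was no replicate error and no test, and every difference below lies between 2 arrays. Whether fewer cells carried a transcript or each cell carried less of it cannot be told apart in such bulk RNA.

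Animal cells build cholesterol from acetyl-CoA through mevalonate, isoprenoid diphosphates and squalene, and then trim lanosterol to cholesterol in the endoplasmic reticulum. Fatty acids are built from the same acetyl-CoA by carboxylation, chain building, elongation and desaturation. The transcription factors SREBP1 and SREBP2 (genes SREBF1 and SREBF2) drive both sets of genes. They are escorted by SCAP to the Golgi for cleavage when sterols are scarce, and are held back by INSIG1 and INSIG2 when sterols are plentiful. In proliferating cells, this system supplies lipid for new membranes.

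The values were intensities on a linear scale, and differences are given on the log2 scale. Trimmed of 2% of probe sets at either end, the mean intensity was 500.1 on every array. CD276 had an intensity of 1381 in siPF, 362 in siB7-H3 and 1486 in siCont, and FOXO1, the fusion partner of PAX3, had 249 in siPF, 650.0 in siB7-H3 and 678 in siCont. PAX3 had 329 in siPF, 398 in siB7-H3 and 381 in siCont, a log2 difference of -0.21 in siPF. All 7 markers of the skeletal muscle lineage were bright, with a summed intensity of 31911 in siPF, 35373 in siB7-H3 and 30354.0 in siCont. A gene was called bright when its mean log2 level reached the 60th percentile of probe sets, an intensity of 135, and 10181 genes were. Of the markers of other cells, 1 of 5 hepatocyte genes, 1 of 5 adipocyte genes, none of 3 epithelial genes and none of 2 measured leukocyte genes were bright. The bright ones were CIDEC, with 148 in siPF, 179 in siB7-H3 and 176 in siCont, and the hepatocyte gene CYP3A4, with 131, 281 and 137. ADIPOQ and PLIN1 were under 45 and ALB under 29 on every array. The adipocyte list summed to 262 in siPF, 218 in siB7-H3 and 228 in siCont. The hepatocyte list summed to 305 in siPF, 455 in siB7-H3 and 335 in siCont. Of the 29 measured lipid genes, 26 were bright, and INSIG1, MVD and TM7SF2 were not.

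Most sterol branch genes were lower in siPF than in siB7-H3. Against siCont, 12 of the 17 measured sterol genes were lower in siPF, where 48.4% of all genes and 47.3% of bright genes were lower. In siB7-H3, 15 of 17 were higher than in siCont, where 50.5% of all genes and 53.1% of bright genes were higher. Set directly against each other, 14 of 17 were lower in siPF than in siB7-H3, where 48.3% of all genes and 49.2% of bright genes were lower. The median log2 difference of the branch was -0.10 for siPF against siCont, 0.23 for siB7-H3 against siCont and -0.35 for siPF against siB7-H3, and the medians over bright genes were 0.02, 0.02 and 0.0034. The first 2 comparisons share the siCont array, so they are not independent of each other.

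**Figure D1:**
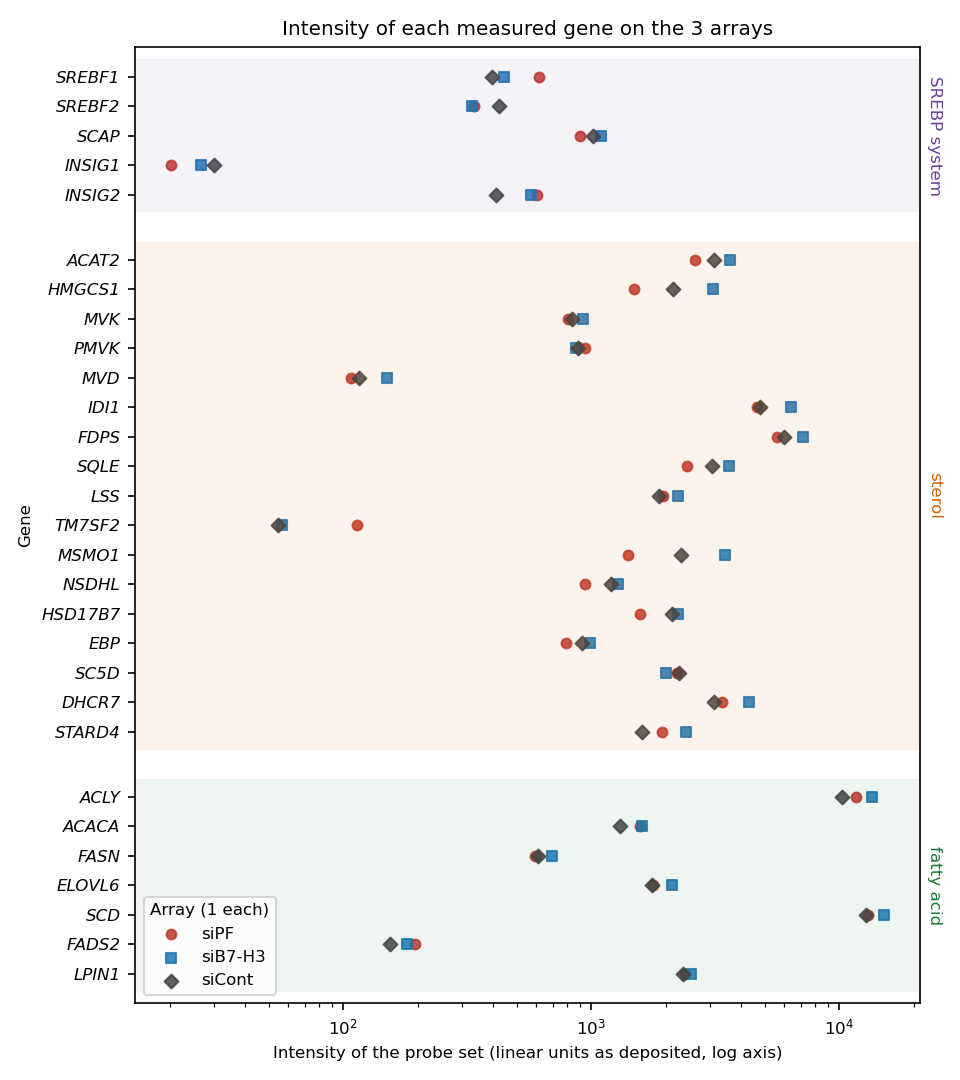
Intensity of each of the 29 measured genes on the siPF, siB7-H3 and siCont arrays (log axis), 1 symbol per array, with rows grouped by branch. For MSMO1 the siPF array lies at 1403, the siB7-H3 array at 3473 and the siCont array at 2299.

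The widest gap was at MSMO1, a methylsterol oxidase that acts after CYP51A1 in the demethylation of lanosterol. Its intensity was 1403 in siPF, 3473 in siB7-H3 and 2299 in siCont. It was 1.64-fold lower in siPF than in siCont (log2 difference -0.71), 1.51-fold higher in siB7-H3 than in siCont (0.59) and 2.48-fold lower in siPF than in siB7-H3 (-1.31). Among the 1977 genes of like level, cut from all genes in 10 level classes, the SD across genes was 0.31, 0.28 and 0.28 in these comparisons, and 2 genes, MSMO1 among them, were as low in siPF against siB7-H3. MSMO1 had a single probe set. NSDHL and HSD17B7, which act with MSMO1 in the same later demethylation, followed in siPF. NSDHL had 945 in siPF, 1278 in siB7-H3 and 1203 in siCont, with log2 differences from siCont of -0.35 and 0.09. HSD17B7 had 1579 in siPF, 2241 in siB7-H3 and 2116 in siCont, with -0.42 and 0.08. For both genes the siPF array stood below the other 2 arrays, which were close together. The second probe set of NSDHL gave -0.38 for siPF and -0.19 for siB7-H3. The HSD17B7 probe set is one of those that can bind several transcripts.

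HMGCS1, which makes HMG-CoA for the mevalonate pathway, had an intensity of 1490.4 in siPF, 3098 in siB7-H3 and 2133 in siCont. Its log2 differences were -0.52 for siPF and 0.54 for siB7-H3 against siCont, and -1.06 for siPF against siB7-H3, a 2.08-fold lower value. The probe sets of HMGCS1 differed in the size of this gap. The other one gave 1446 in siPF, 2098 in siB7-H3 and 1518 in siCont, or -0.07, 0.47 and -0.54 in the same comparisons, so both probe sets were higher in siB7-H3, whereas the gap between siPF and siCont was seen mainly at 1 of them. ACAT2, the cytosolic thiolase that joins acetyl-CoA units before HMGCS1, had 2626 in siPF, 3634 in siB7-H3 and 3128 in siCont, with log2 differences from siCont of -0.25 and 0.22.

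At their chosen probe sets, the enzymes between mevalonate and farnesyl diphosphate were higher in siB7-H3 and close to siCont in siPF, except for PMVK. IDI1, the isopentenyl diphosphate isomerase, had 4675 in siPF, 6359 in siB7-H3 and 4793 in siCont. FDPS, the farnesyl diphosphate synthase, had 5599 in siPF, 7146 in siB7-H3 and 6004 in siCont. The log2 differences were -0.04 and 0.41 for IDI1 and -0.10 and 0.25 for FDPS, in siPF and siB7-H3. The IDI1 probe set can bind several transcripts, and a second bright one gave 0.17 and 0.48. MVK, mevalonate kinase, had 802 in siPF, 929 in siB7-H3 and 836 in siCont. MVD, the decarboxylase that follows the kinases, was dim at 107 in siPF, 149.6 in siB7-H3 and 116 in siCont. PMVK, phosphomevalonate kinase, had 947 in siPF, 869 in siB7-H3 and 886 in siCont and so went slightly the other way. None of MVK, MVD and PMVK was past 1.5-fold in either comparison with siCont at its chosen probe set. The other bright probe sets of MVK gave -0.0044 and 0.086 in siPF and 0.25 and -0.014 in siB7-H3, so the higher level in siB7-H3 was not seen at all of them. A dim probe set of MVK gave -0.76 in siPF and -1.06 in siB7-H3.

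SQLE, the squalene epoxidase, had 2435 in siPF, 3605 in siB7-H3 and 3065 in siCont, with log2 differences from siCont of -0.33 and 0.23. The lower level in siPF was seen at all its probe sets, whose other 3 gave -0.44, -0.33 and -0.39. In siB7-H3 those 3 gave -0.03, -0.09 and -0.17, so the higher level there rests on 1 probe set. LSS, which closes the ring to lanosterol, had 1941 in siPF, 2228 in siB7-H3 and 1882 in siCont. A dimmer LSS probe set gave 191 in siPF, 149.9 in siB7-H3 and 93.4 in siCont, with log2 differences from siCont of 1.03 and 0.68, so it was past 2-fold in siPF and higher in siPF than in siB7-H3, where the chosen one was lower. EBP, a sterol isomerase, had 787 in siPF, 985 in siB7-H3 and 919.8 in siCont, with log2 differences of -0.22 and 0.10. Its other probe sets over the level limit gave -0.25 and 0.25 in siPF and -0.05 and 0.82 in siB7-H3. DHCR7, which makes cholesterol in the last step of one route, had 3377 in siPF, 4310.0 in siB7-H3 and 3125 in siCont. Its log2 difference was 0.46 in siB7-H3, and 0.36 at its other probe set, whereas in siPF these were 0.11 and -0.30. SC5D, a sterol desaturase, had 2208 in siPF, 2009 in siB7-H3 and 2262.5 in siCont. By the chosen probe sets it was the sterol gene with the lowest log2 difference in siB7-H3, at -0.17. Its dim second probe set went the other way, with 1.48 in siPF and 0.58 in siB7-H3.

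STARD4, a carrier that moves cholesterol between membranes, and TM7SF2, a sterol reductase, were above siCont on both knockdown arrays. So were LSS and DHCR7 at their chosen probe sets, and TM7SF2 was only 0.06 above siCont in siB7-H3. STARD4 had 1923 in siPF, 2416 in siB7-H3 and 1596 in siCont, and was 1.51-fold higher in siB7-H3 than in siCont (log2 difference 0.60) and 0.27 above it in siPF. TM7SF2 had 113 in siPF, 56.8 in siB7-H3 and 54.4 in siCont, and was the only measured lipid gene past 2-fold from siCont at its chosen probe set (1.06 in siPF). It was dim, and among the genes of its level class the SD across genes was 0.59. In siPF, 9.72% of all genes and 1.08% of bright genes were at least 2-fold higher, and 9.39% and 0.805% at least 2-fold lower, where no lipid gene was by its chosen probe set. In siB7-H3 no chosen probe set of a lipid gene was past 2-fold from siCont, where 8.75% of all genes and 0.619% of bright genes were at least 2-fold higher and 9.45% and 0.599% at least 2-fold lower.

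**Figure D2:**
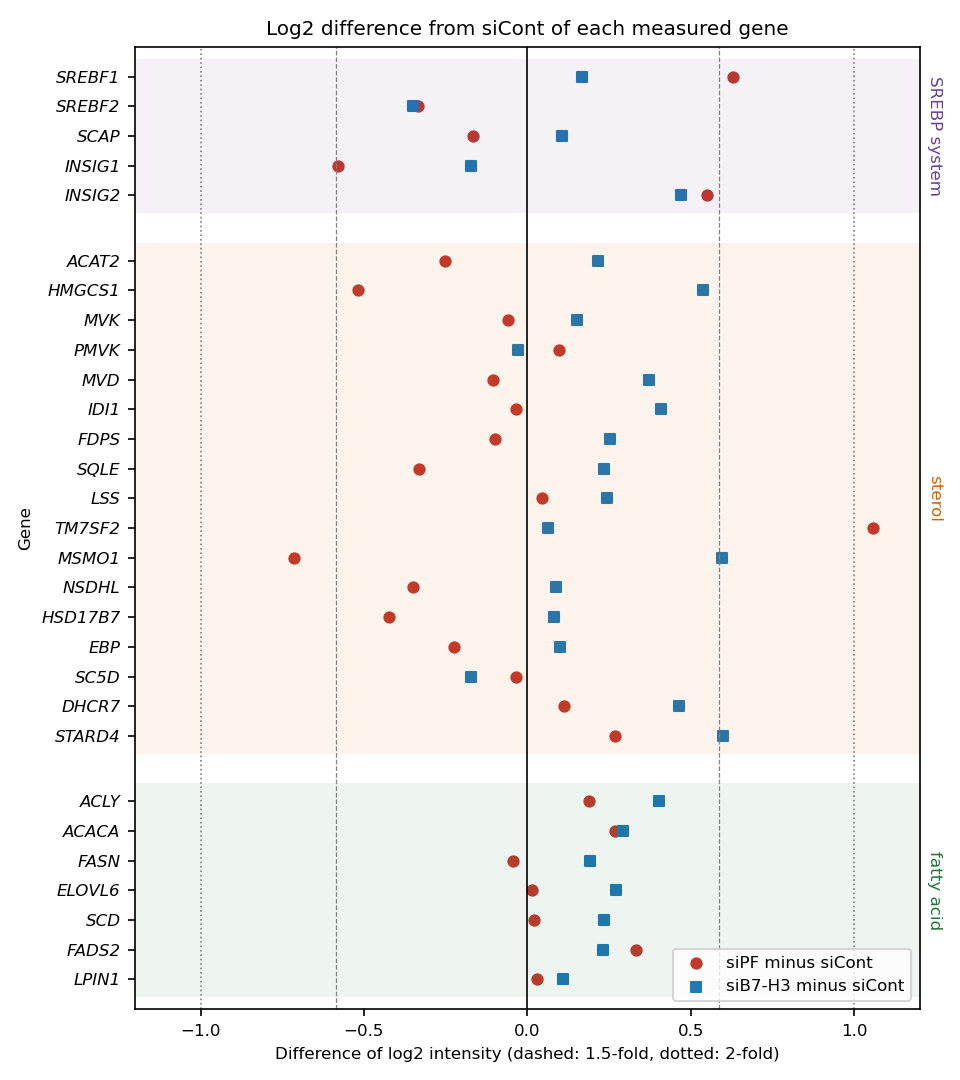
Log2 difference from siCont for the 29 measured genes (circles siPF, squares siB7-H3), 1 array per condition, with dashed lines at 1.5-fold and dotted lines at 2-fold. MSMO1 lies at -0.71 and 0.59, and TM7SF2 at 1.06 in siPF is the only symbol past 2-fold.

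Counted at 1.5-fold over the 29 genes, 1 was lower in siPF (MSMO1) and 2 were higher (SREBF1 and TM7SF2), against 4.01% lower and 5.06% higher among bright genes and 15.5% and 16.2% among all genes. In siB7-H3, 2 genes were higher (MSMO1 and STARD4) and none was lower, against 3.84% and 3.15% of bright genes and 14.8% and 15.8% of all genes. These shares are near the background and set the lipid genes apart in neither comparison. In the direct comparison, MSMO1 and HMGCS1 were at least 2-fold lower in siPF than in siB7-H3, and 0.658% of bright genes and 8.87% of all genes were as low.

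**Figure D3:**
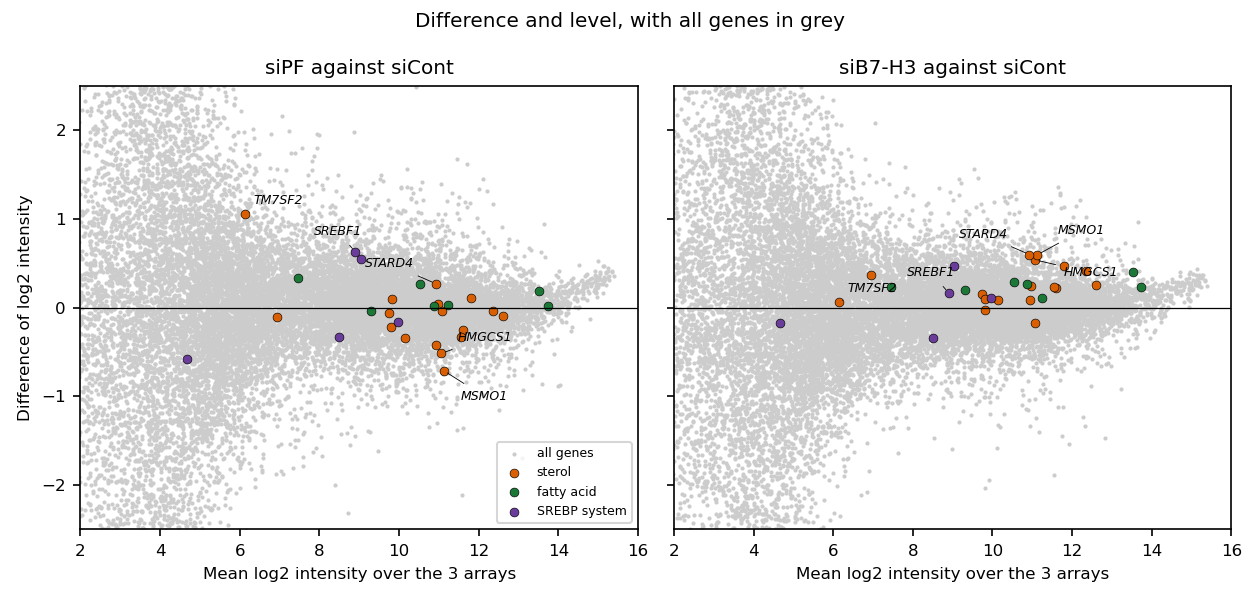
Log2 difference from siCont (vertical axis, cropped so that the most distant dim genes are not shown) against mean log2 intensity over the 3 arrays (horizontal axis) for siPF (left) and siB7-H3 (right), with the 29 measured genes coloured over all genes in grey. The spread of the grey points narrows with level, and MSMO1 lies at -0.71 in siPF and 0.59 in siB7-H3.

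Bright probe sets were also counted. These counts include the chosen probe sets, so likeness to the counts over genes is partly built in. The 17 sterol genes had 27 probe sets with a mean at or over the 60th percentile level. Of these, 23 were lower in siPF than in siB7-H3, 18 were lower in siPF than in siCont and 20 were higher in siB7-H3 than in siCont. Shares over all bright probe sets were not computed. Over bright genes the shares were 49.2%, 47.3% and 53.1%, in the same order. Probe sets of the same gene read the same RNA and are not separate evidence for the condition. Of the 12 that were not the chosen one of their gene, 10 went the way of the chosen one in siPF against siB7-H3, and 7 did so in each comparison with siCont.

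**Figure D4:**
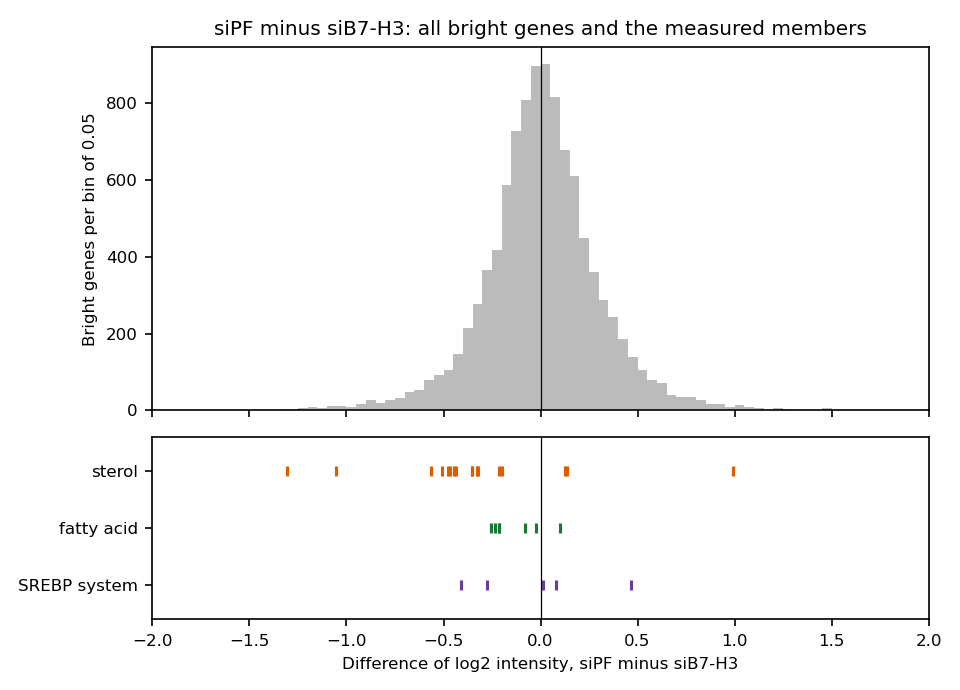
Distribution of the log2 difference of siPF minus siB7-H3 over the 10181 bright genes (upper panel, genes per bin of 0.05) and the values of the 29 measured genes by branch (lower panel, 1 tick per gene). Of the sterol ticks, 14 of 17 lie below 0, down to -1.31 for MSMO1.

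The upstream sequences of 6 genes are shown because they hold, or lack, the boxes that SREBP target genes are known for. Factors of the NF-Y family bind CCAAT boxes and work together with SREBPs at sterol gene promoters. The sequences come from RefSeq windows on GRCh38.p14 and end at the base before the annotated start, and all are written 5′ to 3′ along the gene. They are MSMO1 (chr4:165327519-165327668, plus strand), HMGCS1 (chr5:43313413-43313662, minus strand), STARD4 (chr5:111512536-111512705, minus strand), NSDHL (chrX:152830933-152831062, plus strand), SREBF2 (chr22:41832955-41833104, plus strand) and PMVK (chr1:154936720-154936869, minus strand). Capitals mark CCAAT on either strand (ATTGG where it lies on the other strand), except in SREBF2, where they mark TCACNCCAC, a pattern of the sterol regulatory element. PMVK is shown as a sterol gene with no CCAAT in the window before its most upstream start.
MSMO1: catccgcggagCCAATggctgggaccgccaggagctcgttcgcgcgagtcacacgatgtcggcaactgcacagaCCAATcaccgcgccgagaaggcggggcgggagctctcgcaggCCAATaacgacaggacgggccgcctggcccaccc
HMGCS1: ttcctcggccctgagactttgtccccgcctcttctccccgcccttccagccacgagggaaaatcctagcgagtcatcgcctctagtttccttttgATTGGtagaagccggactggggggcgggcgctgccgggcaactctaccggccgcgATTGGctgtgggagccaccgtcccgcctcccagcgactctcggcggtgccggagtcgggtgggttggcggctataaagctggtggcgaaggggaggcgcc
STARD4: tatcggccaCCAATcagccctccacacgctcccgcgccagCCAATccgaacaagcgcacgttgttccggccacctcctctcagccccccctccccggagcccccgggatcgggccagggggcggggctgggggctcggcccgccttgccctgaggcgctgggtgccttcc
NSDHL: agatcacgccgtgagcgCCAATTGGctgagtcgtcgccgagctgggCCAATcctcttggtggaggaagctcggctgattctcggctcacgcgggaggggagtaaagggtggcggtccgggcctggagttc
SREBF2: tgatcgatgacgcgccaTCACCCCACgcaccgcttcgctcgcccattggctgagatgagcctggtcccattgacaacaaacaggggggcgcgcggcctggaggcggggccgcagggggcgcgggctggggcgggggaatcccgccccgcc
PMVK: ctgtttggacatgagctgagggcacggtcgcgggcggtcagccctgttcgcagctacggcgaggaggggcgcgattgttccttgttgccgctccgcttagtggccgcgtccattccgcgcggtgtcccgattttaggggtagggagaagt

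MSMO1 carried CCAAT at 34, 76 and 139 bases before the start in the stretch shown and once more on the other strand at 185. In NSDHL, a pair of boxes on opposite strands overlaps. Windows of 250 bases upstream were held for 16 of the 19 sterol genes, and 14 of these (87.5%) had CCAAT on either strand in at least 1 window, against 42.8% of 8496 bright genes and 37% of all 27305 genes with a window. More than 1 box was found in 10 sterol genes (62.5%), against 15.9% of bright genes. Some genes had several windows, and these counts take a box in any of them. Before the most upstream start alone, IDI1, DHCR7, PMVK and the unmeasured CYP51A1 had no box. IDI1 and DHCR7 were lower in siPF than in siB7-H3, and PMVK was higher. SC5D and TM7SF2 had 1 box each there and were higher in siPF. Whether boxes went with the order of the arrays was not tested. In the fatty acid branch 3 of 7 genes with a window had CCAAT (42.9%), and in the SREBP system 2 of 5. The pattern TCACNCCAC was found upstream of SREBF2 alone among the 28 listed genes with a window, and in 1.14% of bright genes and 1.09% of all genes. Only exact matches within the 250 bases were searched. Sterol regulatory elements of other sequence or position were not looked for, so a gene without a match may still have one. The palindrome CACGTG was found in 3 of the 28 genes (10.7%, against 11.7% of bright genes and 7.73% of all genes), and GGGCGG, the GC box, in 27 of 28 (96.4%, against 75.8% of bright genes and 46.2% of all genes). A match describes the letters only, and whether a factor was bound in these cells was not measured.

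**Figure D5:**
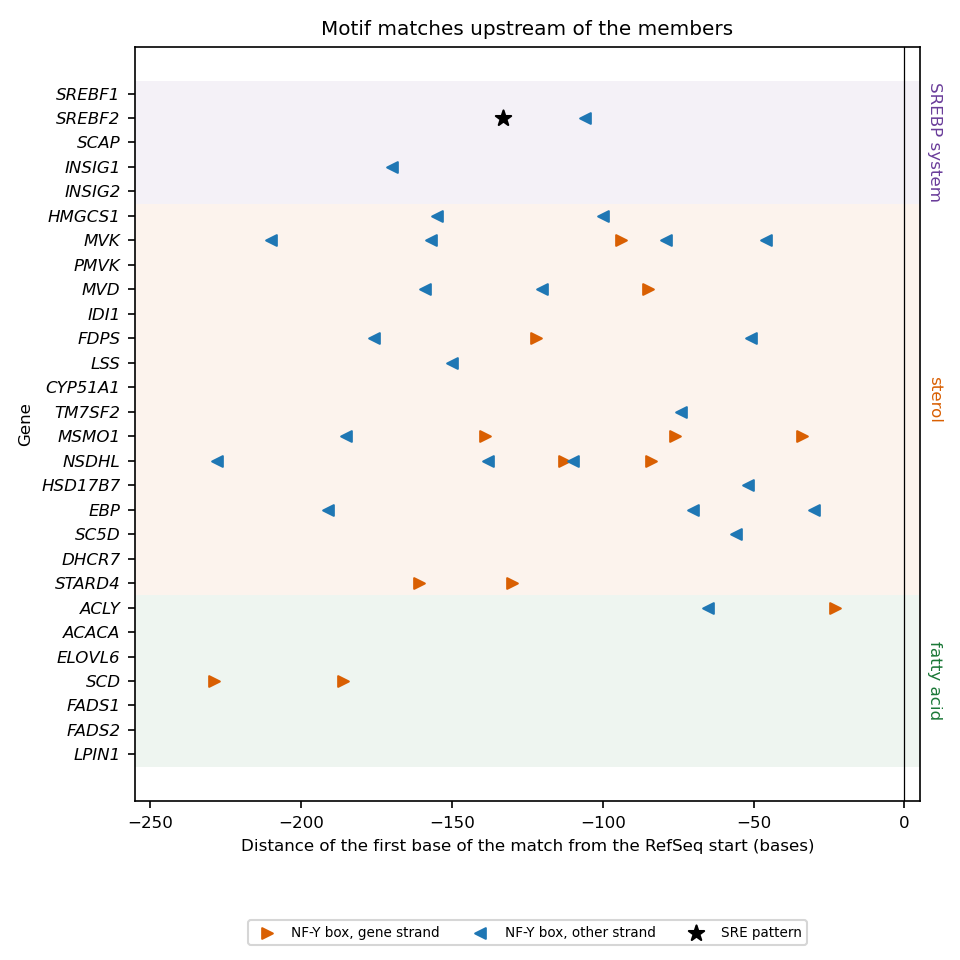
Position of NF-Y boxes (triangles, pointing along the strand they lie on) and of the sterol regulatory element pattern (star) in the 250 bases before the most upstream RefSeq start of 28 listed genes, by branch. Boxes gather in the sterol rows, with 4 for MSMO1 and 2 for HMGCS1, and the star marks SREBF2.

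The fatty acid branch was close to siCont in siPF and slightly higher in siB7-H3. Its 7 measured genes had a median log2 difference of 0.03 in siPF and 0.23 in siB7-H3 against siCont, and of -0.21 in siPF against siB7-H3. Of the 7, 6 were above siCont in siPF, where 51.6% of all genes and 52.7% of bright genes were, and all 7 in siB7-H3, where 50.5% and 53.1% were, by 0.11 to 0.40. None was past 1.5-fold in any comparison at its chosen probe set. Against siCont in siPF, another probe set of ELOVL6 gave -0.61, and dim ones of FASN and FADS2 gave -1.02 and -1.46. ACLY, which makes cytosolic acetyl-CoA from citrate and so feeds both branches, had 11691 in siPF, 13571 in siB7-H3 and 10256 in siCont, with log2 differences of 0.19 and 0.40. Its other bright probe sets gave -0.07 and 0.13 in siPF and -0.05 and 0.11 in siB7-H3, so the size of the difference was not shared. SCD, the desaturase that makes oleate, had 13039 in siPF, 15126 in siB7-H3 and 12855 in siCont. Its 4 probe sets gave 0.02 to 0.16 in siPF and 0.23 to 0.34 in siB7-H3. The genes nearest to SCD in level were also shifted, and among these 201 genes the siPF median was 0.06 and the siB7-H3 median 0.09. Over the 1978 genes of the highest level class the medians were smaller, at 0.016 and 0.034. The part of this shift in the SCD and ACLY values was not tested.

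FASN, the fatty acid synthase, had 592 in siPF, 696 in siB7-H3 and 609 in siCont, and ACACA, the acetyl-CoA carboxylase that supplies it with malonyl-CoA, had 1575 in siPF, 1601 in siB7-H3 and 1308 in siCont. For ACACA both knockdown arrays were above siCont, with log2 differences of 0.27 and 0.29, and a second probe set gave 0.56 and 0.40. ELOVL6, an elongase of long-chain fatty acids, had 1771 in siPF, 2117 in siB7-H3 and 1755 in siCont. Its other probe sets pointed the other way, with -0.53 and -0.61 in siPF and -0.28 and -0.16 in siB7-H3. FADS2, a desaturase of polyunsaturated fatty acids, had 194 in siPF, 181 in siB7-H3 and 154 in siCont, and LPIN1, a phosphatidate phosphatase of glycerolipid synthesis, had 2395 in siPF, 2532 in siB7-H3 and 2347 in siCont. LPIN1 had the smallest log2 difference of the branch in siB7-H3 at its chosen probe set (0.11), and its dimmest probe set gave -0.25 in siPF and -0.35 in siB7-H3.

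Within the SREBP system the 2 factor genes differed. SREBF1 had an intensity of 615 in siPF, 446 in siB7-H3 and 398 in siCont, which was 1.55-fold higher in siPF (log2 difference 0.63) and 0.17 in siB7-H3. A dim second probe set of SREBF1 gave 53.3 in siPF, 47.9 in siB7-H3 and 94.1 in siCont, the opposite direction. SREBF2, which mainly drives the sterol branch, had 335 in siPF, 332 in siB7-H3 and 423 in siCont, or -0.33 and -0.35. Another probe set of SREBF2 gave -0.62 and -0.45, and a dimmer one 0.44 and 0.06. Both knockdown arrays were thus below siCont for SREBF2 at its 2 brightest probe sets, whereas most sterol enzymes were above siCont in siB7-H3. INSIG2 had 606 in siPF, 574 in siB7-H3 and 415 in siCont (0.55 and 0.47). SCAP had 903 in siPF, 1092 in siB7-H3 and 1014 in siCont. INSIG1, itself a target of SREBPs in other cells, was dim at 20.2 in siPF, 26.8 in siB7-H3 and 30.2 in siCont, and its other probe sets were under 35 on all arrays, so no difference was readable.

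Lists of other genes of the same pathways were examined beside these. Of 21 measured genes of sterol transport, sensing and SREBP processing, 14 exceeded siCont in siPF and 18 did so in siB7-H3, with medians of 0.11 and 0.18. Of all genes, 51.6% and 50.5% did so, and of bright genes 52.7% and 53.1%. In siPF, 11 of the 21 were below siB7-H3, with a median of -0.03, where 48.3% of all genes and 49.2% of bright genes were. The gap between the knockdown arrays in the sterol enzymes was thus not seen in the median of this list. CYP27A1, a sterol hydroxylase of bile acid synthesis, was the only one past 2-fold at a level over the 60th percentile of an array, with 314 in siPF, 249 in siB7-H3 and 121 in siCont (1.38 and 1.04). It reached that level on the knockdown arrays only, as the 60th percentile of the siCont array was 132. Of 29 measured genes of elongation, desaturation, fatty acid activation and glycerolipid synthesis, 16 exceeded siCont in siPF and 15 did so in siB7-H3. These counts were near the shares of all genes, 51.6% and 50.5%. The medians of this list were 0.04 and 0.12, and none of its genes was past 2-fold at that level. Over the 20 bright genes of this list the medians were 0.05 and -0.03. MYOG, a muscle differentiation gene, also differed between the arrays, with 3386 in siPF, 1269 in siB7-H3 and 605 in siCont. Of the 7 muscle markers, MYOG among them, 4 were above siCont in siPF and 3 below (MYF5 at -0.96, MYOD1 and FGFR4 at -0.40). In siB7-H3, 6 of the 7 were above siCont and 1 was below. The part of MYOG and the other muscle markers in the lipid gene values was not tested.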

How the data were processed

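RNA of Rh-30 cells transfected with siPF, siB7-H3 or siCont was measured on 3 arrays of the type GeneChip Human Genome U133 Plus 2.0, 1 per condition. The deposited values are linear intensities, 1 per probe set and array, which the authors made with Affymetrix Expression Console 1.4.1. How probes were summarized and scaled is not given in the sources used here. Intensities were converted to log2 without a floor. Of 54675 probe sets, 41091 were named with 1 gene by the platform annotation, with symbols updated through Entrez IDs, and 1801 with several, which were not used. For a gene with several probe sets, the brightest by mean log2 value across the arrays was taken. The chosen probe set of 16 of the 29 measured members carries a suffix (_s_at or _x_at) for probes that can bind several transcripts.

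Differences between 2 arrays were read beside all genes and beside bright genes, an addition made after seeing the data. No test was made. The members, lists and alternatives were chosen with earlier results of these data known. All members were named, and of other pathway genes those past 2-fold whose higher array reached the 60th percentile of its probe sets, besides MYOG and marker genes. Motifs were searched on both strands of the 250 bases upstream of RefSeq starts, with overlapping matches counted, and the motifs were chosen after seeing the data. The array number limits the precision. The code, tested on simulated data, ran on Python 3.11.15 with pandas 2.3.3, numpy 2.4.6, matplotlib 3.10.9 and scipy 1.17.1.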

Additional observations from a re-analysis of the deposited data

How the results depend on the processing

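Of 90 recomputed medians and counts, 74 stayed within 0.1 on the log2 scale or within 1.5 times of the value reported. The sterol medians against siCont did so under all alternatives. In siPF they ran from -0.12 to -0.059. The siPF value of -0.10 is about as large as the limit itself, so this limit says little about it. With each gene taken as the median of its probe sets, the fatty acid median became -0.073 in siPF and 0.10 in siB7-H3. In siPF the counts then became 2 lower at 1.5-fold, 1 lower at 2-fold and 2 higher at 2-fold, and in siB7-H3 1 gene was lower at both limits. Without the _s_at and _x_at probe sets, which left 20 members, 4 were lower in siPF at 1.5-fold and 2 at 2-fold (INSIG1 and FADS2, each through a dim probe set), and the sterol median of siPF against siB7-H3 was -0.21 over 11 genes. The 1 gene higher at 2-fold in siPF was then SC5D, through its dim probe set, in place of TM7SF2. Centring each array on its median and quantile normalization each gave 2 genes lower at 1.5-fold in siPF, as INSIG1 lies at that limit. With a floor at the 60th percentile, or with only the members whose higher array reached it, 1 gene was higher in siPF at 1.5-fold and 0 at 2-fold, as TM7SF2 lies under that level. SREBF1 in siPF was -0.094 with the median over its probe sets and -0.82 at its dim probe set. No paired analysis was possible because each condition had 1 array.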
